A study of Mus musculus with 2 samples.

Results

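The respiratory chain genes described here are the subunits of the 5 enzyme complexes of oxidative phosphorylation, encoded in the nucleus or in mitochondrial DNA, together with the Ndufaf assembly factors of complex I. Members were taken by symbol: every gene starting with Nduf, Cox followed by 4 to 8, Uqcr, Atp5 or mt-, and Sdha, Sdhb, Sdhc, Sdhd and Cyc1. The rule found 108 of 32285 genes, 95 of them nuclear and 13 mitochondrial. Complexes I, III and IV pass electrons from NADH to oxygen and pump protons across the inner mitochondrial membrane, complex II feeds in electrons from succinate, and complex V makes ATP from the proton gradient. Complexes I, III, IV and V are built from both genomes, so their assembly needs matched supply from the nucleus and the organelle, while complex II is nuclear throughout. T cells that divide after antigen are known to enlarge and remodel their mitochondria alongside a strong increase in glycolysis.

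Cells from MARCH1-/- and wild-type hosts were compared, each represented by a single library. Both held CD4 T cells of wild-type donor mice given house dust mite extract by oropharyngeal aspiration on day 0 and on days 7 to 11. They were recovered from the lung on day 14, labelled with Cell Trace Violet and transferred. The recipients of the first group were MARCH1-/- mice and those of the second C57BL/6 wild-type mice, called the MARCH1-/- host and the WT host. Both kinds of host were challenged with the extract, and on day 4 the donor cells that had diluted the dye were sorted from the lung for 3′ single-cell RNA sequencing, which counts unique molecular identifiers (UMIs) near the polyadenylated end of each RNA. MARCH1, a ubiquitin ligase that turns over MHC class II and CD86 on antigen-presenting cells, was missing from the hosts and not from the sequenced cells. The sources used here do not give the number of animals behind a library.

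Barcodes with at least 500 UMIs, at least 250 genes and at most 10% mitochondrial UMIs were used as cells, 156 from the MARCH1-/- host and 352 from the WT host, holding 1575581 and 2571048 UMIs. No cell barcode was shared between the libraries. All 12 CD4 T cell markers were detected in both, and their sum was 6158 CPM (UMIs per 1000000 UMIs of cells) in the MARCH1-/- host and 4612 CPM in the WT host. B cell markers summed to 105 and 22.6 CPM with 4 of 10 detected in each library, macrophage and monocyte markers to 99.6 and 98.4 CPM with 4 of 13 detected in each, and no NK cell marker was seen in the MARCH1-/- host library. The libraries differed beyond the members as well: the median gene among the 6762 with at least 50 UMIs in both libraries together was 0.25 higher in the MARCH1-/- host on the log2 scale, and ribosomal protein genes took 20.7% of UMIs there against 26.0% in the WT host. Ratios below are therefore relative log2 ratios, MARCH1-/- host over WT host with the median gene subtracted, and a gene is counted as higher or lower when this ratio is past 1.5-fold. With 1 library per host there is no test. Intervals are exact 95% intervals for counting error only and say nothing of the spread between animals or library preparations.

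Of the 108 members, 99 had at least 50 UMIs, namely 86 nuclear and all 13 mitochondrial genes. The remaining 9 were nuclear. Among them, Cox4i2, Cox7b2, Cox8b, Cox8c and Ndufa4l2 had 0 UMIs in the cells of both libraries, which allows up to 1.90 CPM in the MARCH1-/- host and 1.17 CPM in the WT host. Cox6a2 had 0 and 3 UMIs, Cox6b2 had 6 and 11, Cox7a1 had 12 and 30, and the assembly factor Ndufaf5 had 19 and 17. Most of these genes encode the tissue-restricted versions of complex IV subunits: Cox6a2, Cox7a1 and Cox8b are the heart and skeletal muscle forms, Cox6b2, Cox7b2 and Cox8c the testis forms and Cox4i2 a lung form. Their ubiquitous partners were among the most abundant members. Cox8a had 940 CPM in the MARCH1-/- host and 1478 CPM in the WT host, and Cox4i1 had 890 and 967 CPM.

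Nuclear-encoded members together took a smaller share of the RNA of cells from the MARCH1-/- host. They summed to 25590 CPM (25341 to 25841) in the MARCH1-/- host and 34269 CPM (34043 to 34496) in the WT host, a relative log2 ratio of -0.67 (-0.69 to -0.66). Of the 86 tested members 40 were lower and 10 were higher, where 15.1% of all genes were lower and 12.6% were higher. Without subtraction of the median gene 30 were lower and 16 higher, where 8.3% of all genes were lower and 25.6% higher. Their median relative log2 ratio was -0.48. Mitochondrially encoded members summed to 26605 CPM in the MARCH1-/- host and 24468 CPM in the WT host. That sum had a relative log2 ratio of -0.13 (-0.15 to -0.11), but it was 0.12 on plain total UMIs and 0.02 when ribosomal protein and mitochondrial genes were left out of the total, so its direction depends on the scaling. Cells of the MARCH1-/- host held 1.04 mitochondrial UMIs per nuclear member UMI, against 0.714 in the WT host. This ratio needs no scaling, but it includes the short transcripts described below. Nuclear members under 700 nt gave 1.20 UMIs per UMI of longer nuclear members in the MARCH1-/- host and 2.01 in the WT host.

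**Figure D1:**
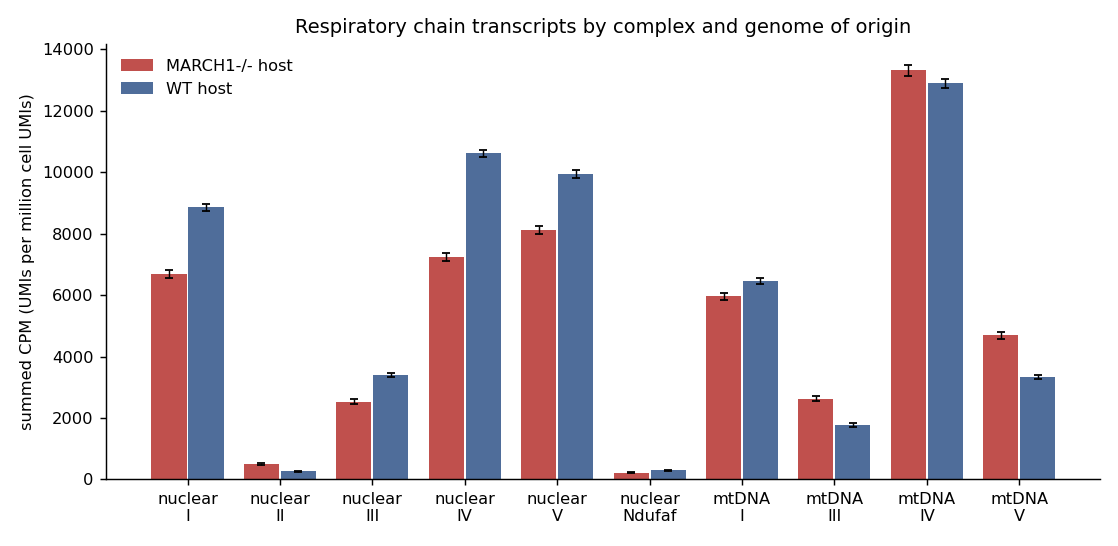
Summed CPM of the members of each complex, nuclear and mitochondrial (mtDNA), in cells of the MARCH1-/- host (red) and the WT host (blue); error bars are exact Poisson 95% intervals and 1 library stands behind each bar. Nuclear complexes I, III, IV and V have the shorter bar in the MARCH1-/- host, complex II has the taller bar there (491 against 268 CPM), and the mitochondrial genes of complexes III, IV and V have the taller bar there on this CPM scale, those of complex IV only slightly.

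The complexes did not move as blocks. Within complexes I and III the sums of core or catalytic subunits and of the other nuclear subunits lay on opposite sides of 0. In complex V this held for 4 F1 subunits only with a further F1 subunit, Atp5e, counted among the rest. In complex I, most of the 7 nuclear core subunits carry the flavin or iron-sulfur clusters or bind ubiquinone. These 7 summed to 678 CPM in the MARCH1-/- host and 464 CPM in the WT host, a relative log2 ratio of 0.30. Ndufs1 at -0.49 and Ndufs7 at -0.20 lay below 0, however. The 29 accessory subunits, which surround this core, summed to 6015 and 8390 CPM, a relative log2 ratio of -0.73, with 1 member higher and 16 lower. Ndufa3, a small accessory subunit of the membrane arm, had 199 CPM in the MARCH1-/- host and 496 CPM in the WT host (relative log2 ratio -1.57, -1.75 to -1.39). The 3 most abundant nuclear members of the complex, Ndufa13, Ndufb7 and Ndufa2, were all accessory and all lower, at -0.84, -0.88 and -1.09. Ndufa9, an accessory subunit near the ubiquinone site, was the exception among them at 81.2 CPM in the MARCH1-/- host and 37.3 CPM in the WT host (0.87).

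Complex II was the complex with no lower member. All 4 subunits lay above 0, 2 of them past 1.5-fold, and their sum was 491 CPM in the MARCH1-/- host and 268 CPM in the WT host (relative log2 ratio 0.62). The membrane anchor Sdhd had the highest ratio of all tested nuclear members, 114 CPM in the MARCH1-/- host and 38.1 CPM in the WT host (1.33, 0.97 to 1.70), from 180 and 98 UMIs. Sdhb, the iron-sulfur subunit, had 227 and 125 CPM (0.61). Sdha, the flavoprotein that oxidizes succinate, had 85.0 and 61.5 CPM (0.22, -0.13 to 0.56, and -0.058 without cycling-like cells), and the anchor Sdhc had 64.7 and 43.2 CPM (0.33, -0.07 to 0.73); their intervals include no difference.

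In complex III the core protein genes Uqcrc1 and Uqcrc2, the Rieske iron-sulfur protein Uqcrfs1 and cytochrome c1 (Cyc1) summed to 578 CPM in the MARCH1-/- host and 320 CPM in the WT host, a relative log2 ratio of 0.60. Uqcrc2 was at 157 and 63.4 CPM (1.06), Uqcrfs1 at 192 and 86.7 CPM (0.89) and Cyc1 at 122 and 64.6 CPM (0.66), while Uqcrc1 was at 107 and 105 CPM (-0.22, -0.51 to 0.06). The 5 small subunits Uqcr10, Uqcr11, Uqcrb, Uqcrh and Uqcrq were all lower and summed to 1957 and 3084 CPM (-0.91). Uqcr11 was the lowest of them at 228 and 496 CPM (-1.37).

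Complex IV, whose catalytic subunits come from mitochondrial DNA, had the nuclear sum with the lowest ratio: 7229 CPM in the MARCH1-/- host and 10615 CPM in the WT host (relative log2 ratio -0.81), with 9 of 12 tested subunits lower and 1 higher. Cox7c had 793 and 1700 CPM (-1.35), Cox6c 738 and 1352 CPM (-1.13), Cox7a2 513 and 904 CPM (-1.07) and Cox8a 940 and 1478 CPM (-0.90); all are small single-span membrane subunits. Cox5a, a matrix-side subunit, had 605 and 410 CPM (0.31). The higher member was Cox7a2l at 319 and 171 CPM (0.65), which is related in sequence to Cox7a2 and is known to join complexes III and IV into supercomplexes.

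In complex V 4 subunits of the F1 head and stalk, Atp5a1, Atp5b, Atp5c1 and Atp5d (alpha, beta, gamma and delta), were each above 0. They summed to 1961 CPM in the MARCH1-/- host and 1325 CPM in the WT host (0.31), with 0 of the 4 past 1.5-fold. The other 13 nuclear subunits summed to 6154 and 8618 CPM (-0.74), with 6 lower and 1 higher, the peripheral stalk subunit Atp5f1 at 472 and 263 CPM (0.59). Atp5k, the small membrane subunit e, had the lowest ratio of all tested nuclear members, 253 CPM in the MARCH1-/- host and 811 CPM in the WT host (-1.93, -2.09 to -1.78). The F1 subunit epsilon, Atp5e, was counted among these 13 and had 861 and 1684 CPM (-1.22). Added to the 4 F1 subunits above, it would bring their sum below 0. Atp5md had 301 and 752 CPM (-1.57). Atp5g1, Atp5g2 and Atp5g3 encode the same mature c-ring protein from different genes, and stood within 1.5-fold at -0.31, 0.17 and 0.07. Of the 7 tested Ndufaf genes, which help to build complex I without staying in it, 3 were lower (Ndufaf8 at -0.90, Ndufaf2 at -0.98 and Ndufaf4 at -1.35) and Ndufaf6 was higher at 0.96 from 34 and 24 UMIs (0.16 to 1.78). Ndufb1-ps had 304 and 888 CPM (-1.80). It matches the Nduf rule but is annotated as a noncoding RNA gene. It enters no complex sum, but it is counted in the sum over all nuclear members and among the 40 lower ones.

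Among the mitochondrial genes, the shortest had the lowest ratios. Mitochondrial DNA is transcribed as long precursors from both strands and then cut into separate messengers, except that mt-Atp8 and mt-Atp6 share a messenger, as do mt-Nd4l and mt-Nd4. In both shared messengers the open reading frames overlap and the upstream gene is the shorter. The sequences of the upstream genes are printed from the GENCODE M21 transcripts, 5′ to 3′ on the plus strand of GRCm38, because results below turn on them; capitals mark the bases that also belong to the downstream gene.
mt-Atp8 (chrM:7766-7969, 204 bases, 43 of them shared with mt-Atp6): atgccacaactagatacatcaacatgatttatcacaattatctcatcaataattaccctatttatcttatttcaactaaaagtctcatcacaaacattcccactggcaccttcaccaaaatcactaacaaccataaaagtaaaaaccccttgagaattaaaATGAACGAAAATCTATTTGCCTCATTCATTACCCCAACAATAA
mt-Nd4l (chrM:9877-10173, 297 bases, 7 of them shared with mt-Nd4): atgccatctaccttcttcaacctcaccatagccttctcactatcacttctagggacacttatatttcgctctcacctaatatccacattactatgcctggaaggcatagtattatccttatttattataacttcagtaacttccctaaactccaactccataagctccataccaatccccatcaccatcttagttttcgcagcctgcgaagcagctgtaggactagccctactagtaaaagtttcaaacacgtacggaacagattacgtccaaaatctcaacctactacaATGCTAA

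The complex I gene mt-Nd4l had 236 CPM in the MARCH1-/- host and 1165 CPM in the WT host, a relative log2 ratio of -2.55 (-2.71 to -2.40), the lowest of all 99 tested members. Its partner on the same messenger, mt-Nd4, had 1875 and 1140 CPM, a relative log2 ratio of 0.47 (0.39 to 0.54). The library of the MARCH1-/- host thus held 0.126 mt-Nd4l UMIs per mt-Nd4 UMI (0.113 to 0.140), and that of the WT host 1.02 (0.971 to 1.08). For complex V, mt-Atp8 had 241 CPM in the MARCH1-/- host and 596 CPM in the WT host (-1.56), while mt-Atp6 had 4447 and 2741 CPM (0.45). That made 0.0542 mt-Atp8 UMIs per mt-Atp6 UMI in the MARCH1-/- host and 0.217 in the WT host. Both genes of such a pair lie on the same RNA, so their ratio needs neither a total nor a median gene.

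The other short mitochondrial genes were also lower. The complex I gene mt-Nd3 had 263 CPM in the MARCH1-/- host and 702 CPM in the WT host (-1.67), and mt-Nd6, the complex I gene on the opposite strand of the genome, had 58.4 and 161 CPM (-1.72). The 4 genes under 600 nt together summed to 798 CPM in the MARCH1-/- host and 2624 CPM in the WT host, a relative log2 ratio of -1.97. The 9 longer genes summed to 25807 and 21844 CPM, at -0.01. Of these 9, mt-Co1, the catalytic subunit of complex IV, had 4638 and 5947 CPM (-0.61) and mt-Nd5 had 593 and 798 CPM (-0.68). The others lay within 1.5-fold: mt-Nd1 at -0.14, mt-Co3 at 0.00, mt-Nd2 at 0.14, mt-Co2 at 0.15 and mt-Cytb, the mitochondrial gene of complex III, at 0.32. The last 300 bases of mt-Nd4l, mt-Nd3, mt-Atp6, mt-Co1, mt-Co2 and mt-Co3 share most of their sequence with other annotated genes, as do those of Cox7c, Atp5l, Ndufs5, Atp5h, Atp5g2 and Ndufs3, so their counts are uncertain where reads could be placed at either copy.

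**Figure D2:**
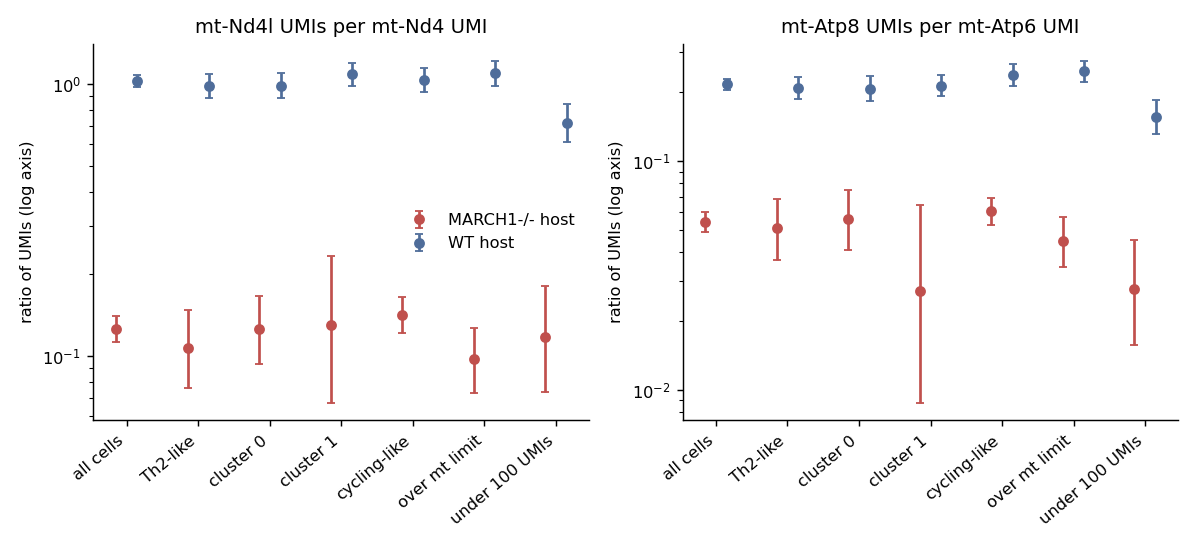
UMIs of the upstream gene per UMI of the downstream gene on a shared messenger (log axes), for mt-Nd4l over mt-Nd4 on the left and mt-Atp8 over mt-Atp6 on the right, in the MARCH1-/- host (red) and the WT host (blue) by class of barcode; bars are exact 95% intervals for counting error. In every class drawn the MARCH1-/- host lies below the WT host with no overlap of the intervals; cluster 4, with 2 cells in the WT host library, is not drawn.

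The low upstream share held in every class of barcode examined. Across cell states mt-Nd4l per mt-Nd4 was 0.103 to 0.142 in the MARCH1-/- host and 0.982 to 1.08 in the WT host, leaving out the 2 WT host cells of cluster 4 (1.22, 0.460 to 3.34). In barcodes left out for a mitochondrial share over 10%, 26 from the MARCH1-/- host and 73 from the WT host, it was 0.0970 and 1.09. In barcodes with under 100 UMIs, which are mostly droplets without a cell, it was 0.118 in the MARCH1-/- host library and 0.717 in the WT host library. The difference between the libraries was thus present in RNA outside the called cells as well.

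Nuclear members also differed by length, here divided at 700 nt. Those with an annotated transcript under 700 nt summed to 13967 CPM in the MARCH1-/- host and 22899 CPM in the WT host, a relative log2 ratio of -0.97, and 32 of the 37 tested were lower and 0 higher. Those of 700 nt or more summed to 11623 and 11370 CPM, at -0.22, with 8 lower and 10 higher of 49. Short genes outside the member list were lower as well. Of the 278 other tested genes under 700 nt, 44.2% were lower and 7.55% were higher, and of the 6381 longer ones 13.3% were lower and 12.9% were higher. Other genes under 500 nt had a median of -0.96 (n = 62), those of 500 to 700 nt -0.44 (n = 216), those of 1000 to 1500 nt 0.22 (n = 814), those of 1500 to 2500 nt 0.08 (n = 1645) and those of 4000 nt or more -0.08 (n = 1633). Over all 6659 other genes the Pearson correlation of the ratio with log2 transcript length was -0.04 and the Spearman correlation -0.10, so the order among them is that of the short genes and not a trend over all lengths. Short transcripts thus tended to be lower in the MARCH1-/- host library among nuclear members and other genes alike. Among mitochondrial genes this held under 600 nt but not for mt-Atp6 and mt-Co2.

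**Figure D3:**
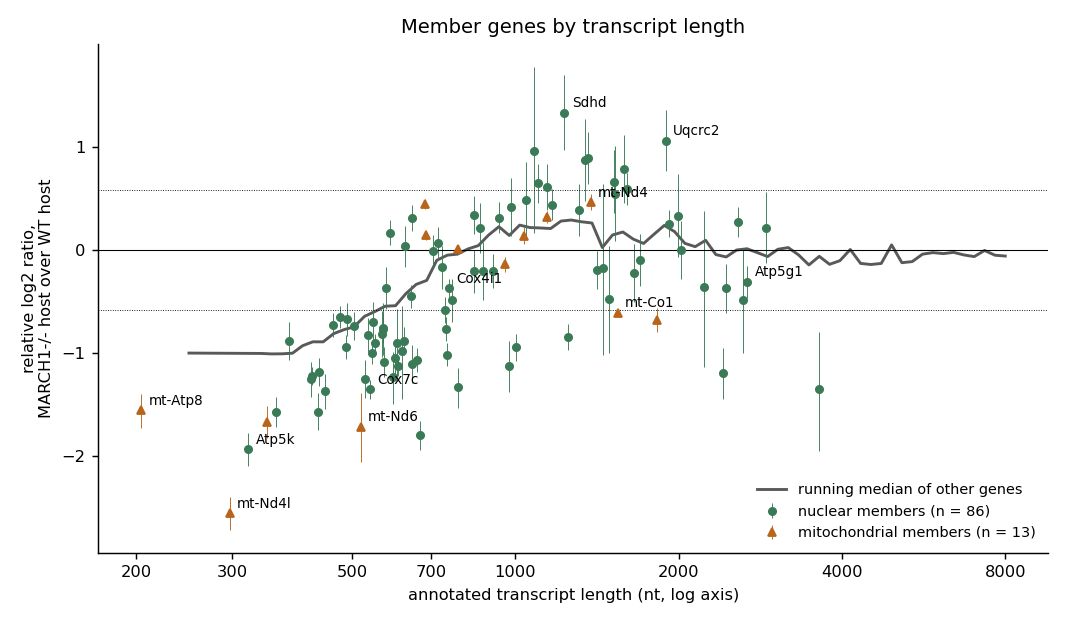
Relative log2 ratio of each tested member against annotated transcript length (nt, log axis), nuclear genes as green circles and mitochondrial genes as orange triangles, with exact 95% counting intervals; the grey line is the running median of other genes and the dotted lines mark 1.5-fold. Members under 700 nt lie mostly below the lower dotted line, and the 10 higher nuclear members all have transcripts of 1082 nt or more.

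Across the 86 nuclear members the relative log2 ratio had a Pearson correlation of 0.54 and a Spearman correlation of 0.60 with log2 transcript length, and of 0.69 and 0.74 with log2 coding length (85 genes with a coding sequence). With GC content they were 0.03 and 0.02. These are descriptions across genes counted in the same libraries. The 8 lower members with transcripts of 700 nt or more (Cox5b, Cox7b, Atp5j2, Ndufa13, Ndufb2, Ndufb4, Ndufc1 and Ndufaf4) had coding sequences of 228 to 519 nt. The 10 higher members had coding sequences of 333 to 1389 nt. Length and role overlapped in part. None of the core subunits of complex I or the core and catalytic subunits of complex III had a transcript under 700 nt. The same held for the F1 subunits Atp5a1, Atp5b, Atp5c1 and Atp5d, but not for the F1 subunit Atp5e (421 nt), counted among the others. Under 700 nt were 14 of the 29 accessory subunits of complex I, 7 of the 13 other subunits of complex V and all 5 small subunits of complex III. So were 8 of the 12 tested nuclear subunits of complex IV, but 0 of the 4 subunits of complex II.

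With the running median of other genes of like length subtracted, the nuclear members stayed somewhat lower as a group. Their median was -0.25, with 17 of 86 lower and 7 higher, beside 13.8% lower and 11.2% higher among other genes treated alike, and their sum was at -0.30, against -0.67 without the subtraction. The small subunits of complex III came to a median of -0.21 and its core and catalytic genes to 0.59, so that the sum of the complex stood at -0.062. The accessory subunits of complex I came to -0.34 and its core subunits to 0.27. In complex V the 4 F1 subunits without Atp5e came to a median of 0.18 and the other subunits, Atp5e included, to -0.32. The median over the whole complex was 0.08, but its sum stayed at -0.20 or lower in all 12 alternatives, this one included. Tested nuclear subunits of complex IV came to a median of -0.32 and those of complex II to 0.38. Among single genes, Sdhd stood at 1.06, Uqcrc2 at 0.85 and Cox5a at 0.72, while Ndufb1-ps stood at -1.43, Ndufc1 at -1.29, Cox7b at -1.15 and Atp5k at -0.93. Of the 13 mitochondrial genes, 5 were lower and 1 higher after the subtraction, with a median of -0.28. Few genes are as short as the shortest members, so the trend there rests on the windows at its edge.

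Cell states were Leiden clusters of both libraries together, made without any member gene so that no member could set a cluster. Of 5 clusters, markers named a Th2-like cluster led by Calca, Il13 and Il5 (20 cells of the MARCH1-/- host and 83 of the WT host) and a cycling-like cluster led by histone genes, Nusap1 and Top2a (45 and 46 cells). Cluster 0, led by Ccl1, Nrgn and Sdc4, had 40 and 104 cells, cluster 1, led by Ccl5, Ly6c2 and Klrk1, had 13 and 117, and cluster 4, led by Gm12840, Ltb4r1 and Tktl1, had 38 and 2. With 1 library per host, a cell state of the MARCH1-/- host and a feature of its library cannot be told apart for cluster 4.

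Cycling-like cells held the largest share of nuclear member RNA in both libraries, 2.77% of UMIs in the MARCH1-/- host and 3.79% in the WT host. The lowest shares were 1.81% in the MARCH1-/- host, in cluster 1, and 3.13% in the WT host, in cluster 0. Against all other cells of the same library the nuclear members of cycling-like cells had a relative log2 ratio of 0.28 (0.25 to 0.31) in the MARCH1-/- host and 0.31 (0.29 to 0.33) in the WT host. In the MARCH1-/- host 9 of 82 tested nuclear members were higher in cycling-like cells and 0 lower, where 18.3% of all tested genes were higher and 17.8% lower. In the WT host 11 of 83 were higher and 0 lower, where 14.3% were higher and 15.6% lower. The shift was thus small per gene, with the members past 1.5-fold under the share over all genes. Of the 82 nuclear members tested in both libraries, 68 lay above 0 in both, 4 below 0 in both and 10 on opposite sides. The share of all genes above 0 in both libraries was not counted. In each library the median tested gene is at 0 by definition, beside 0.34 and 0.30 for the median nuclear member.

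**Figure D4:**
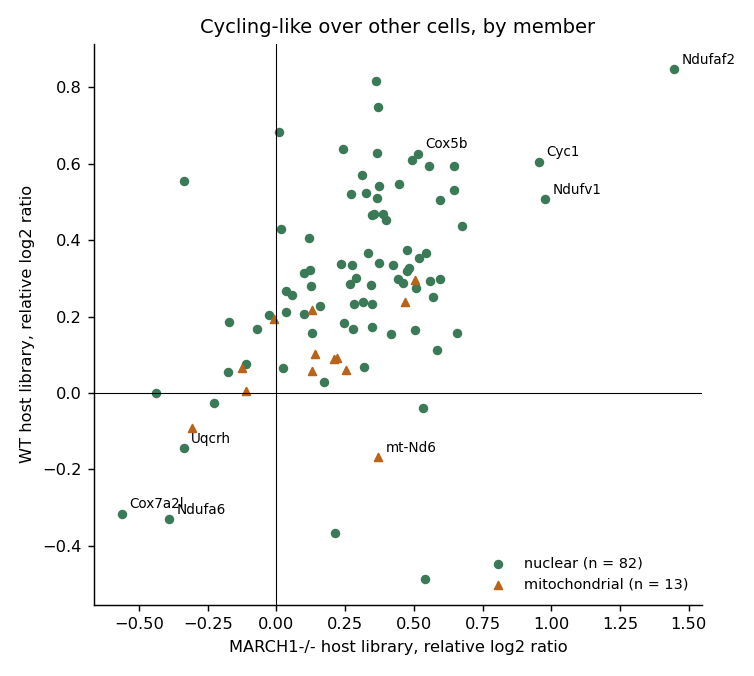
Relative log2 ratio of cycling-like over other cells for each member, in the MARCH1-/- host library (x axis) and the WT host library (y axis); circles are nuclear and triangles mitochondrial members with at least 50 UMIs in each library. Most circles lie in the upper right quadrant, with medians of 0.34 and 0.30, and Ndufaf2, Cyc1 and Ndufv1 lie farthest out.

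Each complex shared this shift. Complex V was at 0.36 in the MARCH1-/- host and 0.32 in the WT host, complex IV at 0.27 and 0.37, complex II at 0.34 and 0.39, complex I at 0.25 and 0.27 and complex III at 0.17 and 0.23. Ndufaf2, an assembly factor of complex I, had the highest mean over the libraries. It was at 53.4 CPM in cycling-like and 20.3 CPM in other cells of the MARCH1-/- host (relative log2 ratio 1.45), and at 86.8 and 52.0 CPM in those of the WT host (0.85). Cyc1, which hands electrons to cytochrome c, was at 0.95 in the MARCH1-/- host and 0.61 in the WT host, and Ndufv1, the NADH-binding subunit of complex I, at 0.98 and 0.51. At the low end, Cox7a2l was at -0.56 and -0.32, Ndufa6 at -0.39 and -0.33 and Uqcrh at -0.34 and -0.15. These genes were picked by their ratios, which are given as a description.

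Mitochondrially encoded members took no clear part in this shift, at 0.01 (-0.02 to 0.04) in the MARCH1-/- host and 0.06 (0.03 to 0.08) in the WT host, and the sign of either value turned with the settings. Of the 13 genes, 8 lay above 0 in both libraries and mt-Co1 below 0 in both (-0.31 and -0.09). Depth moved with the cycling-like state: its cells had a median of 15463 UMIs in the MARCH1-/- host and 13789 in the WT host, and the nuclear share of a cell correlated with its log2 UMIs at a Pearson coefficient of 0.59 over 156 cells and 0.52 over 352 cells. In an alternative, cells with under 1000 UMIs (0 of the MARCH1-/- host and 11 of the WT host) were left out and the others thinned to 1000. The cycling-like value of the nuclear members was then 0.17 in the MARCH1-/- host and 0.33 in the WT host. It was 0.18 and 0.17 with a length trend of the same contrast removed, and 0.23 and 0.20 without subtraction of the median gene.

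Within a state, the nuclear members had lower relative log2 ratios between hosts in each of the 4 states with enough cells: -0.52 (-0.56 to -0.48) in Th2-like cells, -0.71 in cluster 0, -1.03 in cluster 1 and -0.73 in cycling-like cells. Cluster 1 rests on 13 cells of the MARCH1-/- host. The mitochondrial sum was at -0.17, -0.13, -0.26 and -0.14 in the same states. Without subtraction of the median gene it was at -0.021, 0.016, -0.14 and 0.14, so its sign depended on that step in cluster 0 and in cycling-like cells.

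Per cell, the nuclear share had a median of 2.37% in the MARCH1-/- host, with a range of 1.12% to 3.56%, and a median of 3.15% in the WT host, with a range of 0.390% to 5.95%. The ranges overlapped, but the upper quartile of the MARCH1-/- host, 2.75%, lay below the WT host median. The mitochondrial share had a median of 2.66% (0.199% to 6.52%) in the MARCH1-/- host and 2.38% (0.0372% to 9.90%) in the WT host, whose highest value lay near the 10% limit of the cell filter. Nuclear and mitochondrial shares of a cell had a Pearson correlation of 0.08 in the MARCH1-/- host and -0.32 in the WT host, where the Spearman correlation was -0.08; both shares have the same total as denominator.

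**Figure D5:**
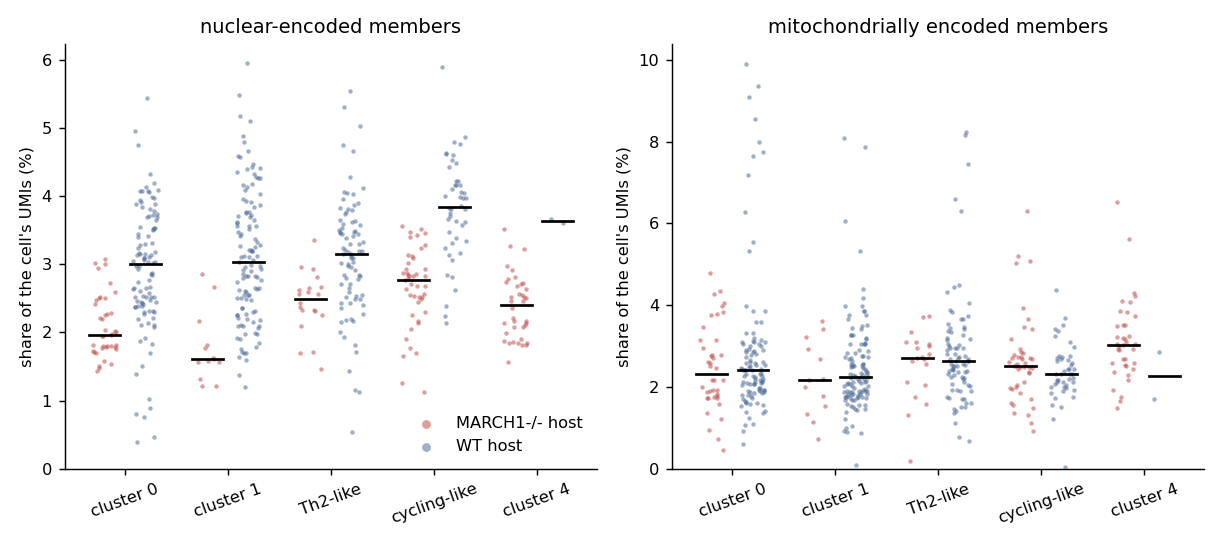
Share of each cell's UMIs from nuclear-encoded (left) and mitochondrially encoded (right) members, by cell state, with the MARCH1-/- host in red left of the WT host in blue; each point is a cell and the black bar is the median. In each state drawn the nuclear median is lower in the MARCH1-/- host, for instance 2.77% against 3.84% in cycling-like cells, while the mitochondrial clouds largely overlap.

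Other mitochondrial genes of related function did not all go the way of the nuclear members. Their counts are read against the shares over all tested genes, 12.6% higher and 15.1% lower. The list for the tricarboxylic acid cycle, which supplies NADH and succinate, also held pyruvate carrier and pyruvate dehydrogenase genes and the cytosolic Mdh1. Of its 20 tested genes, 4 were higher and 0 lower (Fh1 at 1.13, Mpc1 of the pyruvate carrier at 0.77, Suclg1 at 0.61 and Mdh2 at 0.59). The 2 most abundant, Mdh1 and Mdh2, had 220 and 266 CPM in the MARCH1-/- host against 181 and 148 CPM in the WT host. Of 17 mitochondrial carriers and antioxidant genes, 4 were higher and 1 lower, among them the ADP/ATP carrier Slc25a4 at 324 and 155 CPM (0.81), the outer membrane channel Vdac2 at 256 and 121 CPM (0.83), Glrx5 at 1.18, Sod2 at 0.73 and Slc25a13 at -1.41. Of these the phosphate carrier Slc25a3 and the uncoupling protein family member Ucp2 were the most abundant, at 0.56 and -0.23. Of 33 assembly factors outside the symbol rule, 9 were lower and 5 higher. The copper chaperone Cox17 was at 484 CPM in the MARCH1-/- host and 1062 CPM in the WT host (-1.39), Pet100 at -1.39 and Cox20 at -1.26, and the ATP synthase inhibitor Atpif1 at 268 and 393 CPM (-0.80). Timmdc1, Uqcc2, Cox14, Cox16 and Higd1a were also lower, and Sdhaf1, Cox18, Ecsit, Atpaf1 and Tmem70 were higher. By length, the higher genes had transcripts of 1320 to 2490 nt (Cox18 and Sdhaf1 at the ends), and of the lower ones Uqcc2, Cox20, Atpif1 and Cox16 were under 700 nt, at 452, 471, 500.5 and 668 nt, while Cox14 and Pet100 were at 723 and 778 nt and Higd1a, Timmdc1 and Cox17 at 1346.5, 1573 and 2067 nt.

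Of 13 tested genes that express the mitochondrial genome, 1 was lower (Slirp, an RNA-binding protein that stabilizes mitochondrial messengers, at -1.37) and 1 higher (Tbrg4 at 0.85), and Ssbp1 was at -0.22. Of 9 electron carrier and ubiquinone synthesis genes, 2 were higher, Coq3 at 0.97 and the member Cox7a2l, with cytochrome c (Cycs) at 228 and 242 CPM (-0.33) and Etfb at 0.14. Of 8 tested transcription factors and coactivators of mitochondrial genes, Esrra was higher at 1.34, from 35 and 19 UMIs, Nfe2l2 was lower at -0.76 and Yy1 was at -0.01. For the last of these lists and for the genes that express the mitochondrial genome, 1 higher and 1 lower gene is near or under the shares over all genes and is no result about the lists.

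Promoters of 77 of the 95 nuclear members were found in the RefSeq table (build GRCm38.p6, 250 bases before to 50 after each gene start). Motifs of the factors best known for control of respiratory chain genes were searched as exact letters on both strands, and no motif searched contains another. GCATGCG, the middle of the NRF1 site, was in 16.9% of member promoters and 4.90% of the promoters of other coding genes. CCGGAAG, the core bound by GABP and other ETS factors, was in 24.7% and 12.9%, and CGCCATNTT, a form of the YY1 site, in 14.3% and 3.59%. Among promoters of tested members, 35 lower and 37 not lower, NRF1 letters were in 7 and 5, ETS letters in 12 and 7 and YY1 letters in 5 and 6. The promoters of the lowest and the highest nuclear member between hosts are printed 5′ to 3′ on the minus strand, with motif matches in capitals, to show the kind of match counted.
Atp5k (chr5:108434350-108434649, 1 ETS match and NRF1 letters at 1 place, read on both strands): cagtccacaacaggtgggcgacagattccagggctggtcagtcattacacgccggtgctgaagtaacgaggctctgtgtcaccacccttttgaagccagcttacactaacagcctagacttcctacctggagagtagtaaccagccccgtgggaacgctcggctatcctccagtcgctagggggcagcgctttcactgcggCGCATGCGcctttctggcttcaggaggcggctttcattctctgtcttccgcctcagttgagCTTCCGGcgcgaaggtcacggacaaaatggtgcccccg
Sdhd (chr9:50603800-50604099, 1 ETS match): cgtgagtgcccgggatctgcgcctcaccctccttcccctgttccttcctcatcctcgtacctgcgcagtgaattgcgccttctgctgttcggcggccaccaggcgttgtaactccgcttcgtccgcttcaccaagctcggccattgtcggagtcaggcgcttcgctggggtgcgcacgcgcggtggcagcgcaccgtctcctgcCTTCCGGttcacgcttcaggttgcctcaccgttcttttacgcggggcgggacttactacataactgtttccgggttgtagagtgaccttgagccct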

How the data were processed

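The deposited files hold unnormalized UMI counts for each gene in every barcode of 2 libraries (1934068 UMIs from the MARCH1-/- host and 3753437 from the WT host). Per the submitters' processing notes the authors used Cell Ranger 3.1.0 on build mm10, whereas the file headers name version 4; which of them made the counts, the gene annotation and the treatment of reads with several placements are not given in the sources used here. The 3′ kit (v3.1, per the labels' protocols) counts UMIs near RNA ends, and values were not divided by transcript length.

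Counts were summed over cells and scaled to CPM. Ratios have the median gene (at least 50 UMIs in both libraries together) subtracted, and a call needs 1.5-fold. Sums carry exact Poisson and ratios exact conditional binomial 95% intervals, for counting error only; a count of 0 was given a limit of 3 counts. Clustering used scanpy 1.11.5 and leidenalg 0.10.2 (2000 highly variable genes, of which 9 members were removed, 20 components, 15 neighbours, resolution 0.5, seed 1). Scrublet called 5 barcodes in each library; they were kept and left out as an alternative. The median length of protein-coding basic transcripts, coding lengths and shared 3′ sequence (words of 31 bases in the last 300) came from GENCODE M21. Computations used scipy 1.17.1 and numpy 2.4.6 under Python 3.11.15, and edgeR 4.0.16 in R 4.3.3 for TMM scaling, and were tested on simulated data.

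Members and gene lists were chosen with earlier results of these data known, and the length classes and length trend after the values had been seen. Named genes were the mitochondrial genes, the 3 nuclear members of each complex with most UMIs, the 5 highest and 5 lowest between hosts, the 3 highest and 3 lowest in cycling-like cells, isoform genes, and of each list the 2 most abundant and those past 1.5-fold. Genes named outside this rule (the other subunits of complexes II and III, Cox5a, the F1 subunits, Atp5f1, Ndufc1 and the lower members of 700 nt or more) were chosen after their values were seen. Some single genes are not reported here.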

Additional observations from a re-analysis of the deposited data

How the results depend on the processing

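No paired analysis was possible because each host is 1 library. The nuclear sum between hosts stayed negative in all 15 alternatives, and the nuclear sums of complexes I to V kept their direction in the 12 run for them. The cycling-like nuclear value stayed positive in both libraries; the mitochondrial values crossed 0 in both contrasts. Values are relative log2 ratios, given as nuclear and mitochondrial sum between hosts (from -0.67 and -0.13), then cycling-like over other cells, nuclear in the MARCH1-/- and WT host (from 0.28 and 0.31), then mitochondrial in both (from 0.01 and 0.06). Without subtracting the median gene they were -0.42, 0.12, 0.23, 0.20, -0.037 and -0.054. Without ribosomal and mitochondrial genes in the total, where the median gene lay at 0.15, they were -0.52, 0.021, 0.18 in the WT host and -0.070 there. As means over cells they were -0.65, -0.21, 0.31, 0.46 and, mitochondrial in the WT host, -0.045. Thinning gave -0.58, -0.031, 0.17, 0.33, -0.026 and -0.067. A 5% mitochondrial limit gave -0.15 for the mitochondrial sum, 0.24 for WT host nuclear and -0.057 and 0.10 for mitochondrial cycling-like values; a 20% limit gave -0.64, -0.22, 0.34 for the MARCH1-/- host, -0.073 and -0.052. At 1000 UMIs the MARCH1-/- host nuclear value was 0.33, and without Scrublet calls 0.32. Without cycling-like cells the host sums were -0.72 and -0.10. Without the 3 most abundant members the nuclear sum was -0.61. Clustering with members kept gave 0.33, 0.33 and, mitochondrial in the WT host, 0.0035; resolution 1.0 gave 0.33, 0.35 and -0.021. The alternatives that follow were chosen after seeing the data. Removing the transcript length trend gave -0.30, -0.043, 0.18, 0.17, -0.077 and -0.037. Removing the coding length trend gave -0.42, -0.23, 0.22, 0.20 and, mitochondrial in the WT host, 0.010. Leaving out cluster 4 gave -0.20 for the mitochondrial sum and 0.12 for the mitochondrial value in the MARCH1-/- host.

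Of the nuclear members, 40 were lower and 10 higher. The count of higher ones was 16 without subtracting the median gene, 5 after thinning and 2 at 2-fold. The count of lower ones was 21 at 2-fold, 17 with the transcript length trend removed and 26 with the coding length trend removed; it was 30 without subtracting the median gene. Uqcrh, Uqcrq and Ndufa6 turned to 0.13, 0.0057 and 0.12 with the transcript length trend removed. Members within 1.5-fold also changed sign: Ndufv1 was at -0.58 after thinning and Sdha to -0.058 without cycling-like cells, mt-Co2 to -0.087 with the coding length trend removed and mt-Nd2 to -0.023 with the transcript length trend removed, mt-Nd1 stood at 0.11 without subtracting the median gene and 0.012 without ribosomal and mitochondrial genes in the total, and mt-Co3, near 0, changed sign in 4 alternatives. Among single-gene and complex values, 396 stayed within their counting interval, 189 moved out of it and the 3 named above turned from past 1.5-fold; among the sums and counts 60 stayed and 60 moved. The cause of these shifts was not tested. With 156 and 352 cells, members with few UMIs such as Ndufaf6 (34 and 24) have wide intervals, and no setting can stand in for a further library.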

Other observations

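Barcodes over the mitochondrial limit carried little nuclear member RNA: 0.559% of UMIs in 26 barcodes of the MARCH1-/- host and 0.948% in 73 of the WT host, beside 28.3% and 19.8% from mitochondrial genes. Ribosomal protein genes took 3.40% and 5.65% there. In barcodes with under 100 UMIs nuclear members outweighed mitochondrial genes, with nuclear members at 2.62% and 4.26% and mitochondrial genes at 1.02% and 0.743%. Nuclear members under 700 nt gave 0.735 UMIs per UMI of longer nuclear members (0.534 to 1.01) over the limit in the MARCH1-/- host and 1.45 (1.25 to 1.68) in the WT host. In called cells this ratio was 1.20 and 2.01, and in barcodes under 100 UMIs it was 1.32 and 2.07.

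For pairs of mitochondrial genes on separate messengers, mt-Nd3 UMIs per mt-Co3 UMI were 0.0561 in the MARCH1-/- host and 0.179 in the WT host, and mt-Nd6 UMIs per mt-Cytb UMI were 0.0222 and 0.0909. When the member genes were kept in the clustering, a cluster of 78 cells appeared that held WT host cells and 0 cells of the MARCH1-/- host, led by Gstp1, Itgb1 and Gm10076; at resolution 1.0 a cluster of 74 cells did the same.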
